A study of Saccharomyces cerevisiae with 18 samples.

Results

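The 38 genes described here encode proteins of the yeast cell wall or enzymes that build and remodel it. They were chosen by name, as the rows of the deposited count table whose first alias is one of the 38 names, out of 6713 annotated open reading frames (ORFs) among 7126 rows. By role they comprised 16 genes for glycosylphosphatidylinositol (GPI) anchored and other mannoproteins, 4 for PIR proteins (proteins with internal repeats), 11 for glucan remodelling enzymes and 7 for glucan and chitin synthases and the chitinase.

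The yeast wall is a layer of glucan and chitin covered by mannoproteins. Synthases in the plasma membrane extrude β-glucan and chitin, enzymes in the wall cut, elongate and cross-link these polymers, and mannoproteins are attached either through a remnant of their GPI anchor or, for PIR proteins, through an alkali-sensitive bond to glucan. Several mannoprotein genes (the DAN and TIR genes) are classical low-oxygen genes, and the chitin synthase Chs1 and the glucan synthase Gsc2 are known for roles in repair and in stress or sporulation.

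Sequencing covered mRNA (RNA-Seq of oligo(dT)-selected RNA) and ribosome footprints (Ribo-Seq after RNase I digestion) from the same 9 Saccharomyces cerevisiae lysates, 18 libraries in all. The ΔΔtma20tma64, Δtma20 and Δtma64 strains lack TMA20 (MCT-1), TMA64 (eIF2D) or both, which are factors of ribosome recycling and re-initiation, and were set against the wild type (wt). Every strain derived from BY4741, of mating type a with the his3Δ1, leu2Δ0, met15Δ0 and ura3Δ0 alleles. The single deletions carried KanMX4 in place of the gene, and the double mutant carried tma64Δ::HygMX4 with tma20Δ::KanMX4. Cells were grown to mid-log phase in minimal SD medium (4 lysates, 1 per strain) or in rich YPD medium (5 lysates, 1 per mutant and 2 wt cultures, WT1 and WT2), and all received cycloheximide shortly before harvest by filtration. The labels name a nitrogen base without amino acids for SD, whereas the study's methods mention full amino acid supplementation. Each mutant is a single strain, so its background mutations and its deletion cannot be told apart, and p-values rest on the spread between lysates of different strains.

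Each RNA-Seq library held 5608491 to 11388027 ORF counts and each Ribo-Seq library 1668588 to 23532664, with the shallowest footprint library from Δtma20 in SD. Deletions were visible in the counts: TMA20 mRNA was at most 1.52 CPM (counts scaled to a common library total) in strains without the gene, against 137 to 155 CPM in strains with it, and TMA64 mRNA was at most 0.665 CPM against 83.8 to 95.1 CPM. Mating type a genes fitted the label, with MFA1 mRNA at 272 to 357 CPM in SD and 97.9 to 165 CPM in YPD, and the 4 α-specific genes together reached at most 58.6 mRNA CPM, with the α-factor genes MF(ALPHA)1 and MF(ALPHA)2 at 0 to 1.72 CPM and SAG1 at 28.1 to 42.3 CPM. The 12-gene stress and slow growth list summed to 2139 to 3309 mRNA CPM in SD, against 2029 to 2551 CPM in YPD, and to 3006 to 4931 footprint CPM in SD, against 1641 to 3064 CPM in YPD. In SD, 7 of these 12 genes rose and 2 fell in mRNA, beside 14.1% and 11.9% of all ORFs tested. In footprints 9 rose, beside 14.3%. The part of this list in the wall results was not tested. WT1 stood above the other YPD lysates for the low-oxygen genes TIR1, DAN1, TIR3, TIR4 and ANB1, as given below. It was not the highest YPD lysate for DAN4 or TIR2 mRNA. Summed mRNA of 10 genes around low-oxygen control was 805 CPM in WT1 and at most 842 CPM in the other YPD lysates. Their summed footprints were at 578 CPM in WT1 and at most 461 CPM in the others.

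Levels below are CPM after TMM scaling, given for SD in the order wt, Δtma20, Δtma64, ΔΔtma20tma64 and for YPD in the order WT1, WT2, Δtma20, Δtma64, ΔΔtma20tma64. CPM measure shares of a library, so less mRNA per cell and fewer cells expressing a gene cannot be told apart. Fold changes are log2 values from a fit across all ORFs. Their standard error (SE or ±) is the size of the fold change divided by the square root of the test's F value. It thus restates the test and is not a separate estimate of error. A gene is said to have risen or fallen where its Benjamini-Hochberg adjusted p, over all ORFs tested, was under 0.05. Translation efficiency (TE) is the footprint CPM divided by the mRNA CPM of the same lysate. Its change was fitted over all 18 libraries, without a term for the lysate unless a lysate block is named. In SD against YPD, leaving out either lysate of a mutant takes that strain out of the medium effect. Both refits are therefore near repeats of each other.

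The 38 genes together took 2.58 to 2.78% of ORF mRNA counts in SD and 2.23 to 2.56% in YPD, and 2.94 to 3.61% of footprints in SD and 2.64 to 3.28% in YPD. The small GPI protein gene CCW12 alone held a median of 29.5% of these mRNA counts in SD and 25.7% in YPD. Per kilobase of coding sequence, CCW12 averaged 19634 mRNA CPM in SD and 15371 in YPD, rank 2 and rank 3 of 5643 ORFs, and CWP2, another major GPI mannoprotein gene, averaged 9997 in SD and 6511 in YPD. At the other end, DAN1 mRNA averaged 0.515 CPM per kilobase in SD and 6.36 in YPD, and FLO11 mRNA 2.60 in SD and 3.18 in YPD, against an ORF median of 66.1 in SD and 65.8 in YPD.

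**Figure D1:**
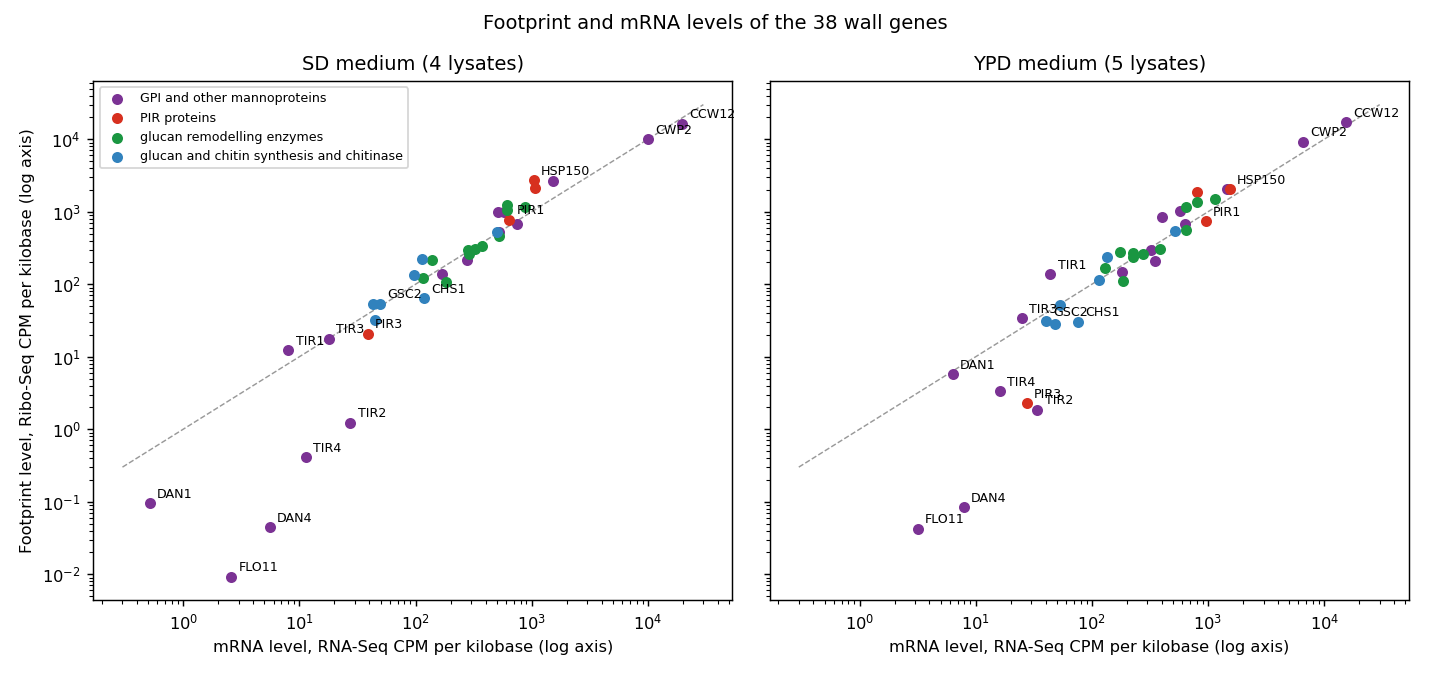
Mean footprint level against mean mRNA level of the 38 genes in CPM per kilobase of coding sequence, both axes logarithmic, for 4 SD lysates (left) and 5 YPD lysates (right), coloured by role; the dashed line marks equal values. FLO11, DAN4, TIR2 and TIR4 lie far below the line in both media, and PIR3 lies far below it in YPD, with 2.27 footprint CPM per kilobase against 27.4 mRNA CPM per kilobase.

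Between the media, 10 of the 38 genes rose and 10 fell in mRNA in SD against YPD, while 14.1% of all 5966 ORFs tested rose and 11.9% fell. In footprints, 35 of the 38 passed the filter on low counts (FLO11, DAN4 and TIR2 did not), of which 6 rose and 4 fell, beside 14.3% and 11.3% of 5369 ORFs. In TE, fitted without a lysate term, 5 of 38 rose and 0 fell, beside 5.04% and 2.41% of 5935 ORFs. With the lysate as replicate block, 6 rose and 2 fell (TIR1 and CWP2), beside 419 higher and 211 lower among all ORFs. The shares in percent also stand beside the counts of each role group below. The median change of the tested members was −0.15 in mRNA, −0.011 in footprints and 0.017 in TE, against medians of 0.0040, −0.0047 and 0.028 over all ORFs tested. Of the 20 genes called in mRNA, 9 were also called in footprints, 8 of them in the same direction and HSP150 in the opposite one, and 16 of the 38 were called in no measure. In each of the 35 calls, the SD to YPD ratio lay on the same side of 1 in all 4 strains. This adds no separate support, since the fit counts disagreement between strains as spread and so favours such genes. Upper-quartile scaling moved the split of all ORFs to 595 higher and 843 lower in footprints, against 766 and 605, and to 193 higher and 244 lower in TE, against 299 and 143. Under it the members counted 6 higher and 5 lower in footprints and 3 higher and 1 lower (CWP2) in TE.

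**Figure D2:**
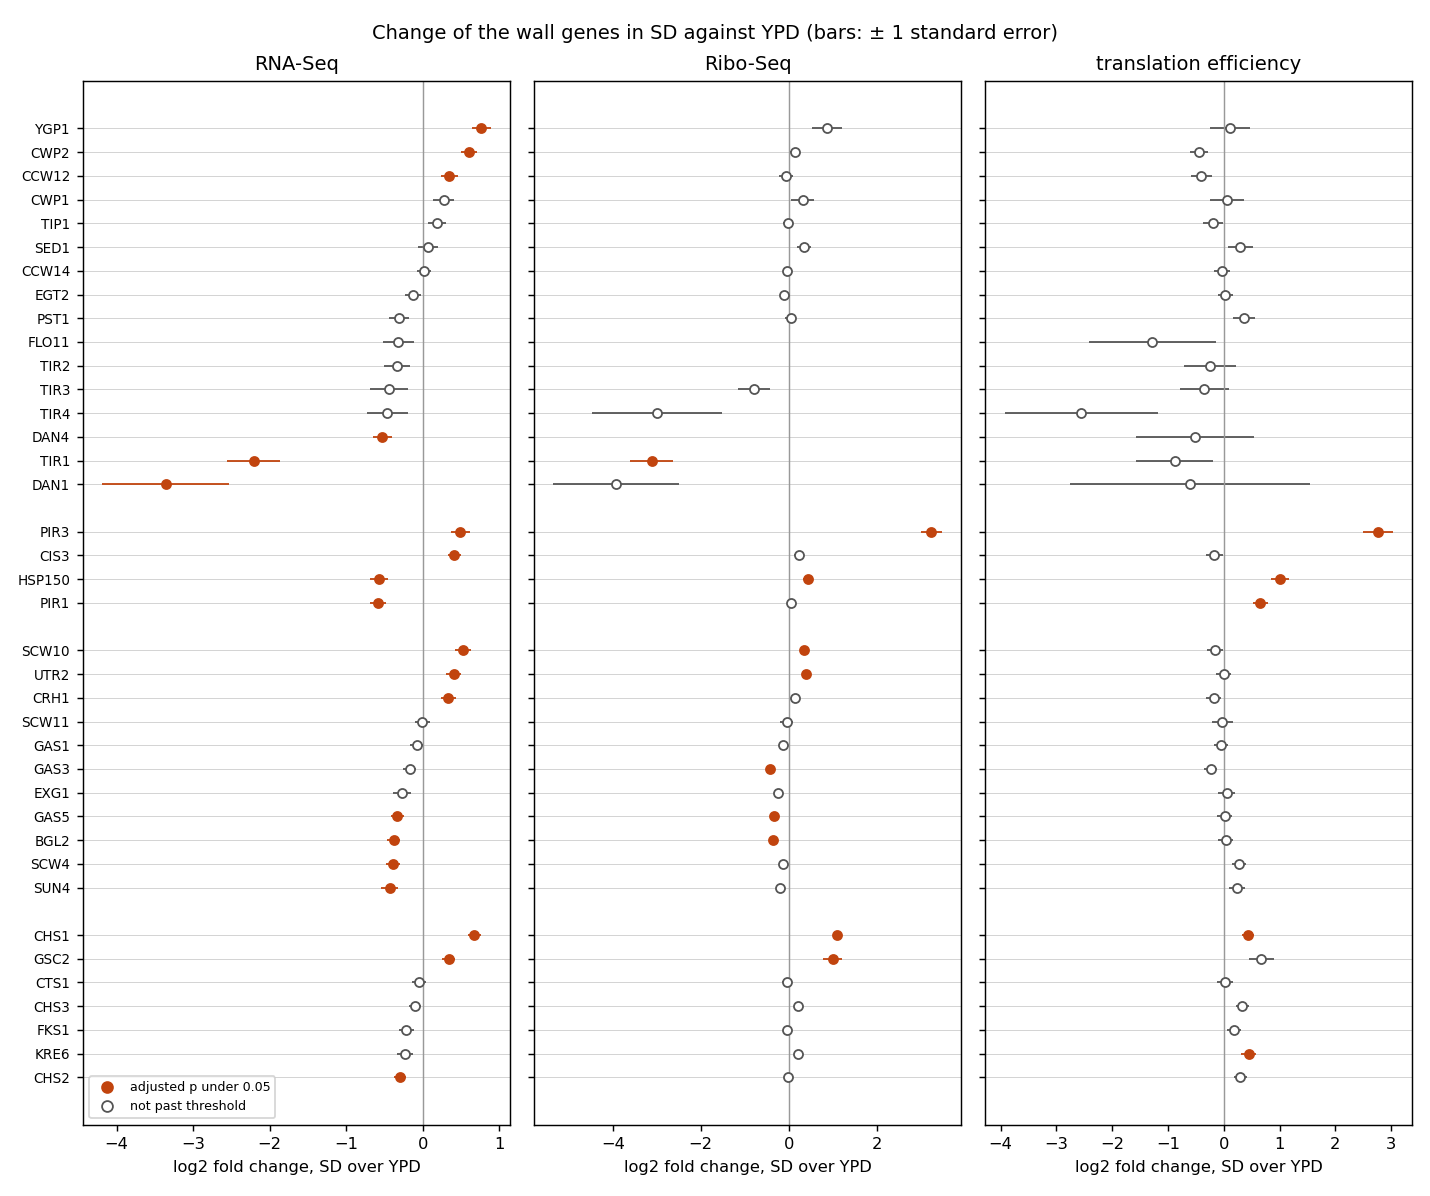
Log2 fold change in SD over YPD with ± 1 standard error for the 38 genes, grouped by role from top to bottom as mannoproteins, PIR proteins, remodelling enzymes and synthases, in mRNA (left), footprints (middle) and TE (right). Filled points passed adjusted p under 0.05. TIR1 and DAN1 lie far to the left in mRNA at −2.21 and −3.36, and PIR3 lies far to the right in footprints at 3.25 and in TE at 2.76.

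CWP2, CCW12 and YGP1 rose in SD in mRNA, without a called change in footprints. CWP2 (YKL096W-A, chromosome XI) had 2484, 2726, 2575 and 3371 mRNA CPM in SD, against 1930, 1746, 1805, 1822 and 1779 CPM in YPD. The groups did not overlap, and CWP2 mRNA rose by 0.60 ± 0.10 (adjusted p = 0.0027). Its footprints overlapped, at 2901, 3123, 2317 and 2744 CPM in SD and 3320, 2664, 2088, 2425 and 2424 CPM in YPD, with a change of 0.15 ± 0.11 (adjusted p = 0.35). CCW12 (YLR110C, chromosome XII) had 7351 to 8959 mRNA CPM in SD and 5363 to 7140 CPM in YPD, a rise of 0.35 ± 0.11 (adjusted p = 0.038), while its footprints spanned 5073 to 8554 CPM in SD and 5946 to 8838 CPM in YPD. The CCW12 call was lost without any 1 of 7 lysates (wt in SD and each lysate of the 3 mutants), with adjusted p-values up to 0.174. YGP1, which encodes a secreted glycoprotein known to be made on nutrient limitation, had 580, 458, 545 and 641 mRNA CPM in SD, against 343, 373, 197, 435 and 356 CPM in YPD. YGP1 rose by 0.76 ± 0.12 (adjusted p = 0.0018), and its footprint change of 0.87 ± 0.34 did not pass (adjusted p = 0.13), although it did without wt in SD (1.26, adjusted p = 0.022).

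In this group 3 of 16 genes rose and 3 fell in mRNA, with a median change of −0.22, and of the 13 tested in footprints 0 rose and 1 fell, with a median of −0.036. SED1, the major structural mannoprotein gene of stationary cells, had 1407 to 1671 mRNA CPM in SD and 1170 to 1947 CPM in YPD, and its footprints spanned 1934 to 3375 CPM in SD and 1696 to 2431 CPM in YPD. The SED1 changes of 0.065 ± 0.13 in mRNA and 0.35 ± 0.17 in footprints did not pass (adjusted p = 0.75 and 0.16). The SED1 footprint change passed by DESeq2 (0.36, adjusted p = 0.045) and without either lysate of Δtma64 (0.52 in both cases, adjusted p = 0.019 at most). With all lysates CWP1, TIP1, CCW14, PST1 and EGT2 passed in no measure, with mRNA changes between −0.31 for PST1 and 0.27 for CWP1. TIP1 mRNA passed without WT1 (0.27, adjusted p = 0.040) and PST1 mRNA without either lysate of Δtma20 (−0.47 in both cases, adjusted p = 0.029). Of these, Egt2 acts in separation of daughter cells, and PST1 is a known target of cell wall integrity signalling.

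Of the low-oxygen mannoprotein genes, TIR1, DAN1 and DAN4 fell in SD in mRNA. The promoters of this class are known targets of the activator Upc2, which binds the AR1 site and the sterol response element. The 500 bases upstream of each start codon were searched on both strands for TCGTTNAG (AR1) and TCGTATA (the sterol element core), which were present in 5.09% and 7.0% of 5986 ORF upstream regions. The matches in the windows shown do not overlap each other. AR1 letters were present upstream of 6 of the 38 genes (CWP1, TIR4, DAN1, DAN4, GAS3 and SCW4), and sterol element letters upstream of 6 (CWP2, TIR3, DAN1, DAN4, GAS5 and CHS2). DAN1 and DAN4, neighbours on chromosome X, held both. The windows for the DAN and TIR genes are shown because TIR1, DAN1 and DAN4 of this class fell in mRNA, read on the gene's strand with the motif in capitals in either orientation, from the RefSeq copy of build R64:
DAN1 AR1, chrX:709869-709898, minus strand: ctaacaaaacaTCGTTCAGgaacagagaat
DAN1 AR1, chrX:710101-710130, minus strand: tattttatctgTCGTTTAGcacatatggcc
DAN1 sterol element, chrX:709892-709921, minus strand: atgccaagatcTATACGAggcctctaacaa
DAN4 AR1, chrX:715918-715947, minus strand: taagatctccaTCGTTCAGgaactgtaaaa
DAN4 sterol element, chrX:715944-715973, minus strand: atgtcaaaaatTATACGAgatctgtttaag
TIR4 AR1, chrXV:344101-344130, plus strand: gaacagggttcCTAAACGAtgcatttctaa
TIR3 sterol element, chrIX:333295-333324, plus strand: gacattggcctTATACGAggcgtacttcgc
TIR1 and TIR2 held neither motif in this window, which says only that these letters are absent there.

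TIR1 (YER011W, chromosome V, 175248 to 176012, plus strand) encodes a serine-rich mannoprotein of cold-shocked and oxygen-starved cells. It had 8.25, 5.40, 7.82 and 3.07 mRNA CPM in SD, against 80.7, 24.3, 23.0, 26.7 and 13.3 CPM in YPD. Its footprints were at 12.7, 8.77, 11.9 and 4.32 CPM in SD, against 259, 85.3, 59.6, 91.7 and 33.8 CPM in YPD. The groups did not overlap in either measure, and WT1 was the highest YPD lysate in both. TIR1 fell by 2.21 on the log2 scale in mRNA (SE 0.35, adjusted p = 0.0016) and by 3.11 in footprints (SE 0.49, adjusted p = 0.0088). Without WT1 the changes were −1.86 (adjusted p = 6.79e-05) and −2.90 (adjusted p = 2.36e-10), and without wt in SD the footprint change of −2.93 lost its call (adjusted p = 0.090). With the lysate as a replicate block, TIR1 also fell in TE, by 1.00 (adjusted p = 0.0012), against −0.88 ± 0.69 (adjusted p = 0.49) without the block.

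DAN1 (YJR150C), a mannoprotein gene made almost only in anaerobic cells, was near the detection limit in SD. It had 7, 7, 4 and 0 mRNA counts in SD, against 176, 9, 16, 24 and 18 counts in YPD, or at most 0.805 CPM in SD against 18.8, 1.55, 2.83, 3.60 and 1.71 CPM in YPD. Footprint counts were 0, 0, 3 and 3 in SD, against 148, 9, 16, 15 and 6 in YPD. DAN1 mRNA fell by 3.36 (SE 0.83, adjusted p = 0.015), and by 2.44 without WT1 (adjusted p = 0.0059). The call was lost without either lysate of the double mutant or without the SD lysate of wt, with adjusted p-values up to 0.081. In the RNA-Seq libraries 26.1% of all counts at the DAN1 locus lay on the opposite strand, the highest share among the 38 genes.

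TIR4 and TIR3 were called in no measure by edgeR with all lysates, while DESeq2 called the footprints of TIR4 (−2.82, adjusted p = 0.048), TIR3 (−0.80, adjusted p = 0.0094) and DAN1 (−4.28, adjusted p = 0.0035) lower in SD. By edgeR the footprints of TIR4 (−2.47, adjusted p = 0.019), TIR3 (−0.60, adjusted p = 0.011) and DAN1 (−3.51, adjusted p = 0.0014) passed without WT1. They also passed without WT2, at −3.30, −0.89 and −4.17 (adjusted p = 0.00038, 0.028 and 0.00017). TIR4 TE passed without WT1 (−2.27, adjusted p = 0.021) and without WT2 (−2.76, adjusted p = 0.019). TIR4 had 13.97, 19.8, 15.7 and 16.8 mRNA CPM in SD and 40.7, 16.7, 21.1, 18.4 and 20.6 CPM in YPD, and its footprints were at 0.877, 1.17, 0.228 and 0.153 CPM in SD and 17.7, 0.641, 1.91, 2.78 and 1.36 CPM in YPD. WT1 thus had a TIR4 footprint level far above every other lysate, with 139 counts against 2 to 16 counts elsewhere, at an mRNA level 2.43 times that of WT2. TIR3 footprints were at 14.5, 19.3, 9.74 and 13.8 CPM in SD and 55.4, 22.3, 22.8, 19.1 and 18.9 CPM in YPD. DAN4 mRNA, at 18.01 to 20.5 CPM in SD and 24.4 to 32.7 CPM in YPD, fell by 0.53 (SE 0.13, adjusted p = 0.014) with no overlap between the groups.

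Among 10 genes around low-oxygen control, 1 rose and 5 fell in mRNA, beside 14.1% and 11.9% of all ORFs. In footprints 0 rose and 1 fell (ANB1), beside 14.3% and 11.3%. In TE 2 rose (UPC2 and HAP1) and 0 fell, beside 5.04% and 2.41%. ANB1, the low-oxygen form of the translation factor eIF5A, had 6.66, 5.63, 7.82 and 4.79 mRNA CPM in SD and 66.9, 17.8, 14.5, 14.8 and 15.0 CPM in YPD. Its mRNA fell by 1.73 (SE 0.42, adjusted p = 0.014) and its footprints by 2.10 (SE 0.33, adjusted p = 0.0010), with WT1 again the highest lysate. UPC2 mRNA fell by 0.47 (SE 0.10, adjusted p = 0.0093), and mRNA of MOT3, a repressor of DAN1 and of other low-oxygen genes, rose by 0.72 (SE 0.14, adjusted p = 0.0057). Neither UPC2 nor MOT3 was called in footprints. The list also held AUS1 (−0.79), HEM13 (−0.49) and HAP1 (−0.38) among the genes that fell in mRNA.

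**Figure D3:**
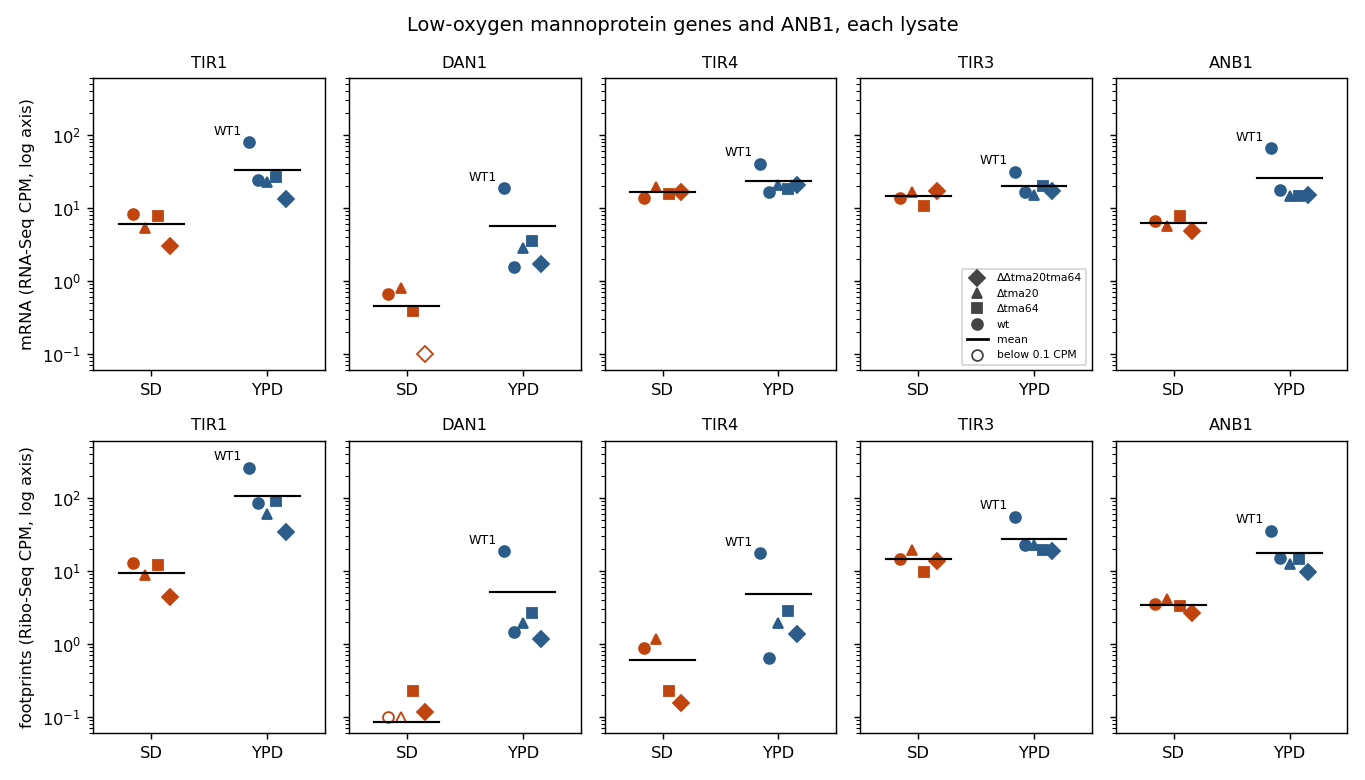
TIR1, DAN1, TIR4, TIR3 and ANB1 in each lysate, SD left and YPD right in each panel, as mRNA CPM (top) and footprint CPM (bottom) on logarithmic axes; symbols mark strains, horizontal lines the means, and open symbols at the bottom values below 0.1 CPM. WT1 is the highest YPD lysate in every panel, at 80.7 CPM for TIR1 mRNA against at most 26.7 CPM in the other YPD lysates.

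FLO11, DAN4 and TIR2 were present as mRNA with almost no footprints. FLO11, the flocculin of invasive and filamentous growth, had 79 to 146 mRNA counts per library (7.88 to 13.2 CPM in SD and 11.3 to 15.2 CPM in YPD) and 9 footprint counts in all 9 lysates together. DAN4 had 138 to 344 mRNA counts per library and 13 footprint counts in all, and TIR2 had 119 to 332 mRNA counts per library and 75 footprint counts in all. Repeats limit what could be counted in FLO11 and DAN4. There 61.9% and 73.4% of all 28-base windows of the coding sequence were unique in the genome, but in TIR2 97.4% were unique. The long noncoding RNA ICR1, which is known to be transcribed across the FLO11 promoter, was at 26.3 to 31.8 RNA-Seq CPM in SD and 33.8 to 51.5 CPM in YPD, and its partner PWR1 had at most 3 counts in any library. Of 9 ORFs in the list of FLO11 regulators, TEC1 (0.85), SOK2 (0.50) and NRG1 (0.40) rose in mRNA in SD and 0 fell. Among all ORFs 14.1% rose and 11.9% fell. The FLO11 change of −0.32 ± 0.20 did not pass (adjusted p = 0.28).

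The 4 PIR genes differed between mRNA and footprints: 2 rose and 2 fell in mRNA, 2 rose in footprints and 3 rose in TE, where the median change of the group was 0.83. PIR proteins carry a short repeat whose glutamine forms the bond to glucan, and the number of repeats differs between members. The repeats bear on the measurement, since uniquely mapped reads were counted and a footprint inside an exact repeat maps to several places: 72.3% of 28-base windows were unique in PIR1, 77.2% in PIR3, 81.8% in HSP150 and 94.2% in CIS3. The most repeated 28-base window of each gene is shown, from the RefSeq copy of build R64, with the shared letters GGTCAA in capitals:
PIR1, chrXI:142591-142618, minus strand, 5 exact copies: tctcaaattggtgacGGTCAAatccaag
HSP150, chrX:120950-120977, plus strand, 4 exact copies: tctcaaatcggtgatGGTCAAgttcaag
PIR3, chrXI:144689-144716, plus strand, 3 exact copies: caaataactgacGGTCAAgttcaagctg
CIS3 held no 28-base window more than once. PIR1 and PIR3 are neighbours on chromosome XI that point away from each other, and HSP150 and CIS3 are neighbours on chromosome X.

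PIR3 (YKL163W, chromosome XI, 144401 to 145378) had 37.3, 35.9, 33.1 and 45.0 mRNA CPM in SD, against 28.05, 24.8, 30.3, 24.3 and 26.6 CPM in YPD. Its footprints were at 34.2, 7.02, 23.4 and 17.1 CPM in SD, against 2.54, 1.92, 1.55, 3.13 and 1.94 CPM in YPD. These rest on 78, 12, 308 and 446 footprint counts in SD and on 10 to 20 counts per YPD library. The groups did not overlap in either measure, and the SD lysates varied among themselves, with Δtma20 lowest and wt highest. PIR3 mRNA rose by 0.49 ± 0.12 (adjusted p = 0.015) and its footprints by 3.25 ± 0.24 (adjusted p = 1.79e-07), a fitted 9.51-fold change. The mRNA call was lost without wt in SD or without either ΔΔtma20tma64 lysate, with adjusted p-values up to 0.062. TE was 0.916, 0.196, 0.708 and 0.379 in SD, against 0.0907, 0.0775, 0.0512, 0.129 and 0.0731 in YPD, and rose by 2.76 ± 0.27 (adjusted p = 5.08e-06).

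HSP150 (YJL159W, chromosome X, 120449 to 121690), the most abundant PIR mRNA per kilobase in YPD, moved in opposite directions in the 2 measures. It had 1375, 1217, 1504 and 1094 mRNA CPM in SD, against 1745, 1739, 1653, 2182 and 2256 CPM in YPD, a fall of 0.57 (SE 0.12, adjusted p = 0.0069). Its footprints were at 4235, 3414, 3083 and 2772 CPM in SD, against 2616, 2455, 2292, 2929 and 2377 CPM in YPD, a rise of 0.43 ± 0.10 (adjusted p = 0.0068). The footprint ranges overlapped at the double mutant in SD and Δtma64 in YPD, and the call was lost without Δtma20 in YPD (adjusted p = 0.052). TE was 3.08, 2.81, 2.05 and 2.53 in SD, against 1.50, 1.41, 1.39, 1.34 and 1.05 in YPD, and rose by 1.01 ± 0.16 (adjusted p = 0.00085).

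PIR1 (YKL164C, chromosome XI, 141794 to 142819) had 619, 669, 730 and 600 mRNA CPM in SD, against 1006, 933, 798, 1060 and 1116 CPM in YPD, a fall of 0.59 (SE 0.11, adjusted p = 0.0035). Its footprints overlapped, at 832, 880, 757 and 713 CPM in SD and 786, 699, 758, 852 and 730 CPM in YPD, with a change of 0.052 ± 0.083 (adjusted p = 0.69). PIR1 TE rose by 0.65 ± 0.14 (adjusted p = 0.0071), which was lost without wt in SD (0.58, adjusted p = 0.053). CIS3 mRNA, at 697 to 762 CPM in SD and 496 to 596 CPM in YPD, rose by 0.41 ± 0.086 (adjusted p = 0.0073). Its footprints and TE changed by 0.24 ± 0.12 and −0.17 ± 0.16 and did not pass (adjusted p = 0.18 and 0.56), although the footprint change passed without either lysate of Δtma64 (0.36, adjusted p = 0.035 and 0.031). Thus 3 of the 4 PIR genes rose in TE and CIS3 did not pass.

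**Figure D4:**
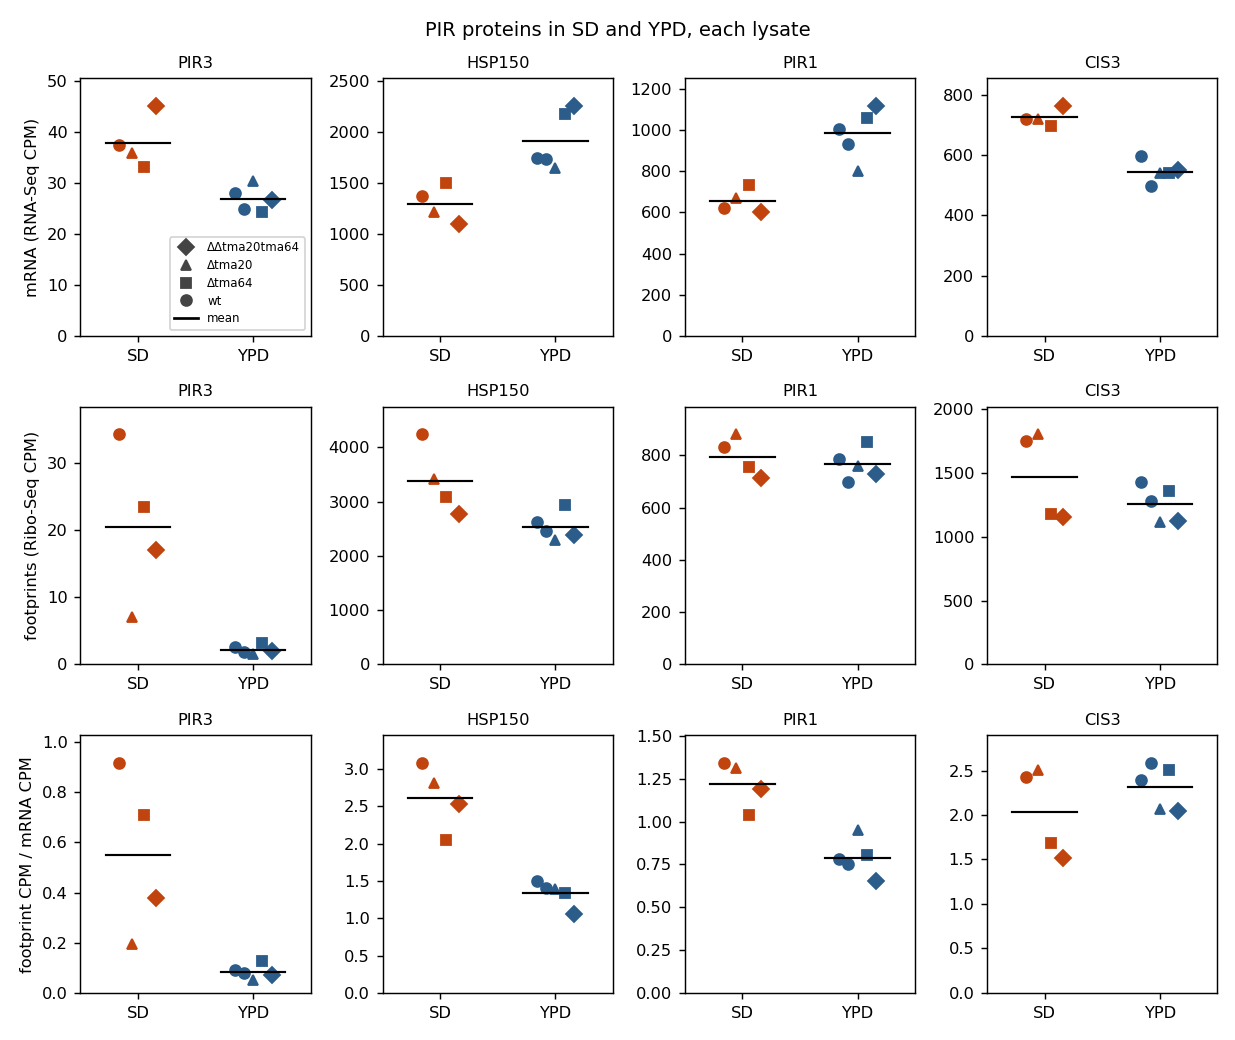
PIR3, HSP150, PIR1 and CIS3 in each lysate, SD left and YPD right in each panel, as mRNA CPM (top), footprint CPM (middle) and footprint CPM divided by mRNA CPM (bottom); symbols mark strains, horizontal lines the means, and axes start at 0. The bottom row shows no overlap between media for PIR3, HSP150 and PIR1, while CIS3 spans 1.52 to 2.502 in SD and 2.04 to 2.58 in YPD.

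Of the 11 glucan remodelling enzymes, 3 rose and 4 fell in mRNA, 2 rose and 3 fell in footprints and none was called in TE, where the median change was −0.0041. The TE count was 0 by edgeR with and without the replicate block and by DESeq2, and 0 of the 11 had an unadjusted edgeR p under 0.05. Among all ORFs 5.04% rose and 2.41% fell in TE, so a count of 0 called among 11 genes is near that share. An unadjusted p under 0.05 was met by 1385 of 5935 ORFs. UTR2 encodes an enzyme that cross-links chitin to glucan. It had 501, 626, 481 and 480 mRNA CPM in SD, against 372, 345, 388, 405 and 431 CPM in YPD. UTR2 rose by 0.40 ± 0.098 in mRNA (adjusted p = 0.014) and by 0.39 ± 0.088 in footprints (adjusted p = 0.0056). Its homologue CRH1 had 405 to 465 mRNA CPM in SD and 303 to 379 CPM in YPD and rose by 0.33 ± 0.10 in mRNA (adjusted p = 0.034), with a footprint change of 0.14 ± 0.081 that did not pass (adjusted p = 0.23). A further homologue outside the 38, CRR1, fell by 2.00 in mRNA (SE 0.31, adjusted p = 0.0014) and by 2.23 in footprints (SE 0.43, adjusted p = 0.0029). The UTR2 mRNA call was lost without wt in SD or either Δtma20 lysate (adjusted p up to 0.081), and that of CRH1 without those or WT2 (adjusted p up to 0.19).

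The glucanase-like enzymes Scw10 and Scw4 are close relatives with partly redundant functions, and their mRNAs moved in opposite directions. SCW10 had 428, 410, 401 and 290 mRNA CPM in SD, against 222, 276, 273, 297 and 251 CPM in YPD, and rose by 0.53 ± 0.11 (adjusted p = 0.0065). SCW10 footprints also rose, by 0.36 ± 0.081 (adjusted p = 0.0054), with 301 to 382 CPM in SD and 212 to 314 CPM in YPD. SCW4 had 701, 703, 712 and 705 mRNA CPM in SD, against 1014, 852, 879, 842 and 1046 CPM in YPD, and fell by 0.39 (SE 0.095, adjusted p = 0.014). SCW4 footprints, at 1260 to 1652 CPM in SD and 1478 to 1771 CPM in YPD, changed by −0.13 ± 0.085 (adjusted p = 0.29). The SCW4 mRNA call was lost without wt in SD or either Δtma20 lysate, with adjusted p-values up to 0.052.

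BGL2, the major glucan transferase of the wall, was lower in SD in both measures. It had 855, 759, 906 and 770 mRNA CPM in SD, against 1129, 1027, 943, 1133 and 1141 CPM in YPD, and 959, 1056, 1162 and 1150 footprint CPM in SD, against 1607, 1473, 1246, 1444 and 1233 CPM in YPD. BGL2 fell by 0.38 in mRNA (SE 0.088, adjusted p = 0.012) and by 0.36 in footprints (SE 0.094, adjusted p = 0.014), and the footprint call was lost without wt in SD (adjusted p = 0.074). The glucan elongase gene GAS5 fell by 0.33 in mRNA (SE 0.089, adjusted p = 0.022) and by 0.33 in footprints (SE 0.086, adjusted p = 0.013). The GAS5 mRNA call was lost without any lysate of Δtma64 or ΔΔtma20tma64 (adjusted p up to 0.082), and its footprint call without wt in SD or either Δtma64 lysate (adjusted p up to 0.057). GAS3, of the same family, fell in footprints only, by 0.42 (SE 0.081, adjusted p = 0.0019), with 181 to 212 CPM in SD and 245 to 282 CPM in YPD, while its mRNA changed by −0.17 ± 0.083 (adjusted p = 0.16). SUN4, which acts in septation, had 323 to 398 mRNA CPM in SD and 434 to 557 CPM in YPD and fell by 0.43 (SE 0.11, adjusted p = 0.019). Its call was lost without wt in SD or either ΔΔtma20tma64 lysate (adjusted p up to 0.068).

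GAS1, the principal elongase, spanned 950 to 1076 mRNA CPM in SD and 1019 to 1275 CPM in YPD. Its changes of −0.079 ± 0.091 in mRNA and −0.14 ± 0.083 in footprints did not pass (adjusted p = 0.56 and 0.25). The exoglucanase gene EXG1 (−0.27 ± 0.11 in mRNA, adjusted p = 0.10) and the daughter-cell glucanase gene SCW11 (−0.0059 ± 0.097, adjusted p = 0.97) also did not pass. EXG1 mRNA passed by DESeq2 (−0.28, adjusted p = 0.048).

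Among the 7 genes of synthesis and chitin cleavage, 2 rose and 1 fell in mRNA, 2 rose and 0 fell in footprints, and 2 rose in TE, with median changes of −0.11, 0.21 and 0.33. CHS1, the chitin synthase that repairs the septum at cell separation, moved in all 3 measures. It had 483, 363, 419 and 341 mRNA CPM in SD, against 254, 294, 232, 268 and 236 CPM in YPD. Its footprints were at 260, 201, 227 and 182 CPM in SD, against 104, 108, 102, 116 and 85.7 CPM in YPD, with no overlap in either measure. CHS1 rose by 0.67 ± 0.084 in mRNA (adjusted p = 0.00038) and by 1.10 ± 0.082 in footprints (adjusted p = 2.09e-07). CHS1 TE was 0.537, 0.553, 0.543 and 0.534 in SD, against 0.410, 0.367, 0.440, 0.432 and 0.364 in YPD, and rose by 0.43 ± 0.12 (adjusted p = 0.028). The TE call was lost with upper-quartile factors (adjusted p = 0.072) and without any lysate other than WT1 (adjusted p up to 0.14), which left its direction unchanged at 0.36 to 0.47.

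GSC2, the stress and sporulation subunit of glucan synthase, had 301, 254, 309 and 255 mRNA CPM in SD, against 273, 245, 209, 223 and 191 CPM in YPD. Its footprints were at 340, 240, 393 and 259 CPM in SD, against 233, 244, 153, 178 and 71.9 CPM in YPD. The media overlapped in both measures. GSC2 rose by 0.34 ± 0.079 in mRNA (adjusted p = 0.013) and by 1.00 ± 0.21 in footprints (adjusted p = 0.015). Both calls were lost without either Δtma64 lysate (adjusted p up to 0.055 in mRNA and 0.061 in footprints). GSC2 TE changed by 0.67 ± 0.22 (adjusted p = 0.080) without the lysate block and by 0.67 (adjusted p = 0.013) with it. FKS1, the subunit of vegetative growth, had 570 to 725 mRNA CPM in SD and 634 to 878 CPM in YPD and was called in no measure, with changes of −0.22 ± 0.10 in mRNA and −0.047 ± 0.077 in footprints (adjusted p = 0.14 and 0.70).

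KRE6, which acts in β-1,6-glucan synthesis, rose in TE by 0.45 ± 0.13 (adjusted p = 0.046), with 1.21, 1.36, 1.30 and 1.71 in SD, against 1.05, 0.980, 1.10, 1.08 and 0.848 in YPD. The call was lost with RLE or upper-quartile factors and without any lysate other than WT1, with adjusted p-values up to 0.25. CHS2, the synthase of the primary septum, fell in mRNA by 0.30 (SE 0.083, adjusted p = 0.026), with 114 to 141 CPM in SD and 134 to 171 CPM in YPD. Its call was lost without WT2 or any lysate of Δtma20 or ΔΔtma20tma64 (adjusted p up to 0.095), and its footprint change was −0.0070 ± 0.077. CHS3, which makes most wall chitin, and the endochitinase gene CTS1 were called in no measure. CTS1 had 800 to 899 mRNA CPM in SD and 833 to 974 CPM in YPD, a change of −0.049 ± 0.090 (adjusted p = 0.73).

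With the lysate as replicate block in the TE fit, 8 of the 38 genes were called, 6 higher and 2 lower, against 5 and 0 without it. Calls among all 5935 ORFs also grew, to 419 higher and 211 lower, against 299 and 143 without the block. The added calls are therefore not read as particular to the wall genes. The 3 added genes were GSC2, with the rise given above, and TIR1 and CWP2, which fell by 1.00 and 0.44 (adjusted p = 0.0012 and 0.038). TIR1 TE also passed without WT1 (−1.03, adjusted p = 0.0022), and CWP2 TE by DESeq2 (−0.46, adjusted p = 0.046).

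Other wall-related genes came from lists chosen by function. Their counts stand beside the shares of all ORFs, and nothing particular to a list is read from them. These shares were 14.1% higher and 11.9% lower in mRNA, 14.3% and 11.3% in footprints and 5.04% and 2.41% in TE. Of 32 other wall proteins and surface proteases, 7 of 31 tested rose and 4 fell in mRNA, 10 of 25 rose and 4 fell in footprints and 7 of 31 rose in TE, with medians of 0.037, 0.51 and 0.28. In mRNA the leading rises were NCA3 (1.68), SPI1 (1.30) and YLR194C (1.28), and in footprints PLB3 (2.27), YLR194C (2.23) and NCA3 (2.20). SPI1 encodes a wall protein related to Sed1, and PLB3 a phospholipase B of the cell surface. PLB3 mRNA was at 112, 114, 97.9 and 105 CPM in SD and 102, 93.1, 90.6, 78.3 and 107 CPM in YPD, and its footprints at 81.5, 70.2, 79.4 and 75.8 CPM in SD and 14.6, 21.2, 18.1, 15.8 and 12.0 CPM in YPD. Thus PLB3 TE rose by 2.08 ± 0.16 (adjusted p = 5.44e-07).

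Of 21 genes of cell wall integrity signalling, the protein kinase C pathway that answers wall damage, 3 rose and 2 fell in mRNA and 3 rose in footprints, beside the 14.1% and 11.9% of all ORFs in mRNA and 14.3% in footprints. The transcription factor gene RLM1 rose by 0.50 in mRNA, and the gene of the kinase Slt2 rose by 0.22 in mRNA and 0.41 in footprints, while mRNA of the sensor gene SLG1 (WSC1) fell by 0.44. In the chitin synthesis support list, 1 of 11 rose and 1 fell in mRNA and 3 rose in footprints, among them SHC1 (0.58 and 0.91), a homologue of the Chs3 activator. In the β-1,6-glucan list, 1 of 13 rose and 1 fell in both measures: KNH1, a homologue of KRE9, rose by 0.79 and 1.28, and CWH41, the glucosidase gene of glycan trimming, fell by 0.30 and 0.33.

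In protein mannosylation 0 of 28 rose and 4 fell in mRNA (KRE2 by 0.60) and 3 rose and 3 fell in footprints (MNN4 rose by 1.34), with medians of −0.12 and −0.025. In GPI anchor synthesis 0 of 24 rose and 3 fell in mRNA and 4 fell in footprints, with CWH43 lower in both by 0.42 and 0.48 and a footprint median of −0.17. Among all ORFs 11.9% fell in mRNA and 11.3% in footprints.

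Between strains, none of the 38 genes passed for loss of TMA20 or of TMA64 with all lysates. For TMA20 loss, 0 of 38 were called in mRNA, beside 0.0838% of all ORFs, 0 of 35 in footprints, beside 3.95%, and 0 of 38 in TE, beside 0.0674%. For TMA64 loss, 0 members were called in each measure, beside 0.0168% of all ORFs in mRNA, 0.0559% in footprints and 0.0168% in TE. At an unadjusted p under 0.05, edgeR counted 6 members in mRNA, 7 in footprints and 4 in TE for TMA20 loss. All ORFs at this limit numbered 600 of 5966, 996 of 5369 and 419 of 5935. For TMA64 loss edgeR counted 3, 1 and 1 members, beside 133, 280 and 134 ORFs. DESeq2 called 1 member in mRNA (TIR1) and 4 in footprints (GSC2, FKS1, PIR3 and TIR1) for TMA20 loss, all lower. Among all ORFs DESeq2 called 29 higher and 23 lower in mRNA and 105 higher and 194 lower in footprints. For TMA64 loss DESeq2 called 0 members, beside 1 ORF in mRNA and 6 in footprints. In the lists above, footprints of 2 of 25 other wall proteins and proteases fell with TMA20 loss, AGA1 (−0.70 ± 0.17, adjusted p = 0.041) and YPS1 (−0.37 ± 0.088, adjusted p = 0.034). Footprints of 1 of 24 GPI anchor genes, GPI1, rose (0.41 ± 0.10, adjusted p = 0.037), beside the same 3.95% of all ORFs in either direction.

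The footprint changes nearest the threshold for TMA20 loss were those of both glucan synthase genes. GSC2 footprints without TMA20 were at 240 and 259 CPM in SD and 153 and 71.9 CPM in YPD, against 340 and 393 CPM in SD and 233, 244 and 178 CPM in YPD with it. The fitted GSC2 change was −0.76 ± 0.19 (adjusted p = 0.060). FKS1 footprints without TMA20 were at 1127 and 1249 CPM in SD and 1179 and 1110 CPM in YPD, against 1317 and 1355 CPM in SD and 1517, 1403 and 1465 CPM in YPD with it. Lysates without TMA20 were the lower ones in both media for both genes, and the FKS1 change was −0.27 ± 0.077 (adjusted p = 0.064). PIR3 followed with −0.87 ± 0.26 (adjusted p = 0.071), CHS1 with −0.27 ± 0.087 (adjusted p = 0.099) and TIR1 with −1.43 ± 0.40 (adjusted p = 0.12). In the mRNA the GSC2 and FKS1 changes were −0.27 ± 0.074 and −0.22 ± 0.093 (adjusted p = 0.27 and 0.48). The footprint count for TMA20 loss depended on the lysates used: 0 to 3 members passed when 1 lysate was left out, with TIR1 passing without WT1, TIR1, DAN1 and TIR4 without WT2, GSC2 without wt in SD or without ΔΔtma20tma64 in YPD, and GSC2 and FKS1 without ΔΔtma20tma64 in SD.

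The effect of TMA20 loss differed between media for CWP1 footprints. CWP1 (YKL096W, chromosome XI, 261132 to 261851) encodes a GPI mannoprotein enriched at the birth scar. In SD its footprints were at 740 and 846 CPM in Δtma20 and ΔΔtma20tma64, against 628 and 637 CPM in wt and Δtma64. In YPD they were at 425 and 408 CPM in Δtma20 and ΔΔtma20tma64, against 691, 827 and 707 CPM in WT1, WT2 and Δtma64. Lysates without TMA20 were thus higher in SD and lower in YPD, with no overlap in either medium, and the interaction of TMA20 loss with medium (SD over YPD) was 1.16 ± 0.18 (adjusted p = 0.012). CWP1 mRNA was at 370 and 513 CPM without TMA20 in SD, against 284 and 297 CPM with it, and at 288 and 277 CPM without it in YPD, against 280, 295 and 308 CPM with it. The mRNA interaction of 0.67 ± 0.18 did not pass (adjusted p = 1.00, unadjusted p = 0.0046). The footprint call was lost without either lysate of the double mutant, the YPD lysate of Δtma20, or the SD lysates of wt or Δtma64 (adjusted p up to 0.33), while the value stayed between 1.03 and 1.27.

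CWP1 was the 1 member called in this footprint interaction, beside 0.112% of all ORFs. No member was called for the interaction of TMA20 loss with medium in mRNA (0% of all ORFs), of TMA64 loss with medium in mRNA or footprints (0% and 0%), or of both deletions in mRNA or footprints (0% and 0.149%). At an unadjusted p under 0.05 these 5 edgeR fits counted 2, 6, 3, 1 and 2 members, in that order. All ORFs at this limit numbered 130 of 5966, 468 of 5966, 419 of 5369, 109 of 5966 and 461 of 5369. DESeq2 called 0 members in each, beside at most 28 ORFs in any of them.

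**Figure D5:**
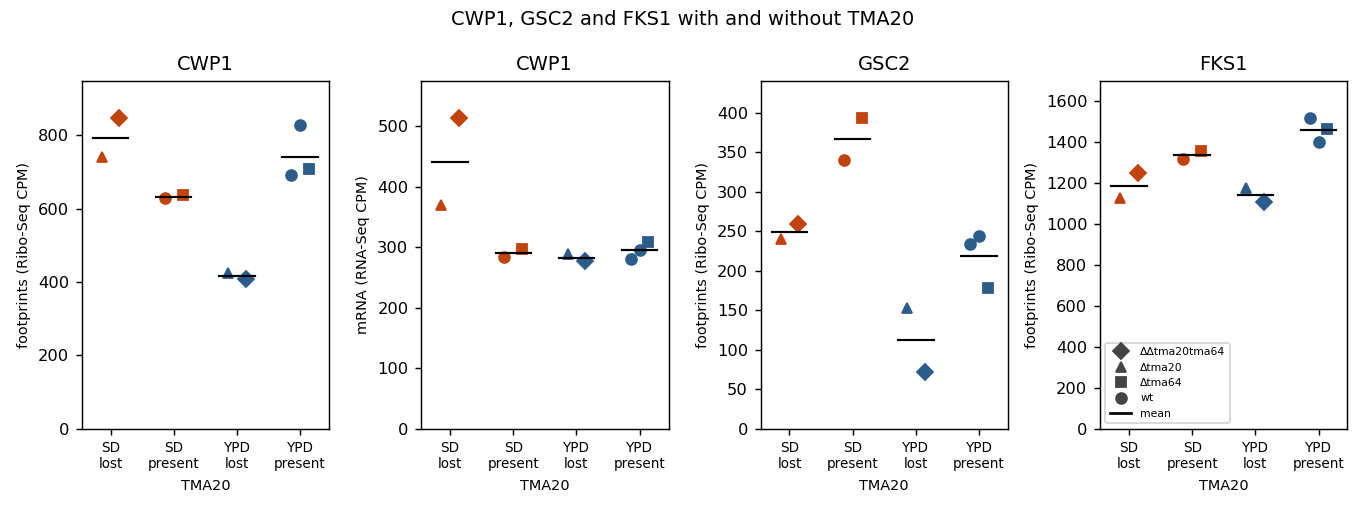
CWP1 footprints, CWP1 mRNA, GSC2 footprints and FKS1 footprints in CPM in each lysate, split by medium (SD on the left of each panel, YPD on the right) and within each medium into strains that lost TMA20 and strains that have it; symbols mark strains, horizontal lines the means, and axes start at 0. For CWP1 footprints the 2 lysates without TMA20 lie above the others in SD (740 and 846 CPM) and below them in YPD (425 and 408 CPM).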

How the data were processed

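The authors trimmed the reads with cutadapt 1.18 and aligned them with STAR 2.5.3a to the R64-1-1 genome with the Ensembl 90 annotation, per the labels and the study's methods, and deposited uniquely mapped reads per gene as raw counts on the strand of the gene. The 18 libraries came from 9 lysates in 4 strains and 2 media, and replicates in the p-values are separate cultures of different strains, with 2 cultures in 1 group only. Rows that name no feature were left out, and their shares differed between media without overlap. They held 28.3 to 39.1% of RNA-Seq reads in SD and 18.8 to 23.6% in YPD. In Ribo-Seq they held 1.20 to 1.58% in SD and 0.805 to 1.09% in YPD. Ribo-Seq reads that mapped to several places numbered 49104342 to 56510273 in SD and 29552582 to 36760645 in YPD. The part of these library differences in the medium results was not tested. Counts of 6713 ORFs were tested with edgeR 4.0.16 in R 4.3.3 by robust quasi-likelihood tests after TMM scaling and filterByExpr with a minimum count of 10, with Benjamini-Hochberg adjustment over all ORFs tested at 0.05. SD against YPD was fitted with strain as covariate, the losses of TMA20 and TMA64 together with medium, and TE as the interaction of assay with these terms. No test stands on the 38 genes alone. RNA-Seq and Ribo-Seq share lysates, as the study's methods state, so lysates pair the TE libraries. Residuals of the same lysate, after strain and medium, correlated at 0.0715 to 0.302 across 5348 genes, which are not independent replicates. Of 9 lysates, 5 matched best with themselves. Both lysates of a mutant have mirrored residuals in this fit and give the same correlation. The 9 values are thus not separate, and they cannot tell a match of lysate from a match of strain. Alternatives were RLE and upper-quartile factors, DESeq2 1.42.0, no filter, counts from both strands, deletions in place of strains, the lysate block and the omission of each lysate. The fits were also run on counts simulated from their own fitted means and dispersions with known changes. That simulation held no effect shared by both assays of a lysate, so it does not cover the pairing. No conclusion is drawn from it. The members and lists were chosen with earlier results of these data known. Genes named in full were those called in any test and the 3 most abundant per kilobase in each role group, and up to 3 called genes per list by size of change. UPC2, HEM13 and HAP1 were named after their values were seen. Sequences and windows came from the RefSeq copy of R64. Intervals and fold changes cover the spread between lysates, and the sources used here state no use of molecular identifiers. The result of 1 gene list is not reported here.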

Additional observations from a re-analysis of the deposited data

Results flagged for a closer look

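Within a medium, 146 sets of values (each gene that passed the filter, in each assay and medium) were compared by Dixon's ratio of the gap beside an extreme lysate to the whole range, which chance alone passes in about 1 in 20 sets. It was passed in 13 sets, and in 8 of these the extreme lysate was WT1 in YPD. WT1 stood above the other YPD lysates for TIR1 mRNA (80.7 CPM, others at most 26.7) and footprints (259 CPM, others at most 91.7), for DAN1 mRNA (18.8 CPM, others at most 3.60) and footprints (18.8 CPM, others at most 2.61), for TIR4 mRNA (40.7 CPM, others at most 21.1) and footprints (17.7 CPM, others at most 2.78), for TIR3 footprints (55.4 CPM, others at most 22.8) and for SCW4 footprints (1771 CPM, others at most 1543).

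In SD, Δtma20 was highest for EGT2 mRNA (580 CPM, others at most 512), UTR2 mRNA (626 CPM, others at most 501) and SUN4 footprints (385 CPM, others at most 319), and ΔΔtma20tma64 was lowest for GAS1 mRNA (950 CPM, others at least 1056). In YPD, Δtma20 was lowest for SCW11 mRNA (254 CPM, others at least 304).

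The effect of TMA20 loss on CWP1 footprints differed between SD and YPD by 1.16 on the log2 scale in the interaction test (adjusted p = 0.012 by edgeR's quasi-likelihood test). In SD 2 of 2 lysates without TMA20 lay above the others, and in YPD 2 of 2 lay below them. These are the values that the test used, so they add no separate support, and the call depended on single lysates as given above.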

How the results depend on the processing

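Of 541 refits of the 36 single-gene calls, 471 kept the call, 70 lost it and 0 reversed. Of the 70, 67 came from leaving out 1 lysate and 3 from other scaling factors, and 17 of the 36 calls held throughout. In SD against YPD, 13 to 21 members were called in mRNA when 1 lysate was left out (13 without wt in SD, against 20), 8 to 13 in footprints (against 10) and 2 to 7 in TE (2 without wt in SD and 3 without any 1 mutant lysate, against 5). Without wt in SD, calls among all ORFs fell as well, to 661 higher and 557 lower in mRNA, against 842 and 707. In footprints they fell to 614 and 450, against 766 and 605, and in TE to 201 and 60, against 299 and 143. The lower member counts are therefore not read as particular to the wall genes. The paired fit with the lysate as block called 8 members in TE, beside 419 higher and 211 lower among all ORFs. DESeq2 called 1 member for TMA20 loss in mRNA and 4 in footprints, against 0 in each, and omissions gave 0 to 3 in footprints. For the TMA20 by medium interaction in footprints, omissions gave 0 to 2 members against 1, the added gene without Δtma64 in YPD being YGP1 (1.79). Omitting 1 lysate of a mutant leaves that strain with 1 sample. In SD against YPD the strain term then fits that sample exactly, so it adds nothing to the medium effect or the spread. Omitting either lysate of a mutant is there nearly the same refit, and the tallies above count both. No library of the interaction fits has a replicate other than wt in YPD. Low counts limit the footprint values of FLO11, DAN4, TIR2, TIR4, DAN1 and, in YPD, PIR3.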
